A study of Homo sapiens with 18 samples.

Results

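The genes of MHC class I antigen presentation examined here were TAP1, TAP2, TAPBP, PSMB8, PSMB9, PSMB10, HLA-B, HLA-E, HLA-F and HLA-G. Every array probe set annotated to exactly 1 of these 10 genes was taken, which gave 22 of the 20374 probe sets that carry a single gene symbol. The values came from 18 arrays of TC32 and TC71, established lines of Ewing sarcoma, a childhood tumour in which EWSR1 is fused to another gene. YK-4-279 is a small molecule developed against that fusion protein. In each line, 3 arrays held cells given 3 µM YK-4-279 for 72 h, 3 held resistant clones and 3 held untreated parental cells that are sensitive to the compound. The clones had been grown out of the parental line over 7 months in rising doses of YK-4-279 that ended at 3 µM. They are C1, C4 and CP in TC32 and C3, C4A and C5 in TC71, with 1 array each. The labels mark the clones as treated and give nothing on its presence at harvest, and no untreated culture of the same age was among the samples. Separate cultures are not named for the replicates, p-values thus cover only the spread between arrays, and 3 arrays a group limit the precision.

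MHC class I molecules carry peptides from inside the cell to its surface, where CD8 T cells and natural killer cells read them. The proteasome cuts proteins into peptides, and interferon exchanges its 3 catalytic subunits for PSMB8, PSMB9 and PSMB10. TAP1 and TAP2 form the pump that moves peptides into the endoplasmic reticulum, and TAPBP (tapasin) holds an empty class I molecule beside the pump. HLA-B is a classical class I heavy chain, while HLA-E, HLA-F and HLA-G are the less variable, non-classical ones. Interferon raises most of these genes through an interferon-stimulated response element (ISRE) in their promoters, and Ewing sarcoma is known for low surface class I.

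The promoters are shown because several of the genes were high on the same arrays. Windows from 250 bases before to 50 bases after a RefSeq transcript start (GRCh38.p14) were found for 9 of the 10 genes, not for HLA-E, and were searched on both strands. The ISRE was written as GAAA, any 2 bases and GAAA, the interferon gamma site (GAS) as TTC, any 3 bases and GAA, and the site of NF-kappa B was searched as the kappa B site. The ISRE was present for 6 of the 9 genes (HLA-F, PSMB10, PSMB8, TAP1, TAP2 and TAPBP), against 4.38% of the 27305 genes with such a window. The GAS was found for 2 of the 9 genes (PSMB8 and TAP1), against 9.38% of all genes. The kappa B site was found for 4 of the 9 genes (HLA-B, HLA-G, TAP1 and TAPBP), against 13.3%. A match describes the letters only, and a gene without one may hold a site spelled otherwise. In the stretches below, 5′ to 3′ on the gene's own strand, capitals mark the ISRE, the kappa B site at GGGACTTTCC in TAP1 and the kappa B site in HLA-B. The ISRE capitals of TAP1 and TAPBP and the kappa B capitals of HLA-B cover 2 overlapping matches each, and the PSMB9 stretch holds neither motif.
TAP1, chr6:32853705-32853954, minus strand: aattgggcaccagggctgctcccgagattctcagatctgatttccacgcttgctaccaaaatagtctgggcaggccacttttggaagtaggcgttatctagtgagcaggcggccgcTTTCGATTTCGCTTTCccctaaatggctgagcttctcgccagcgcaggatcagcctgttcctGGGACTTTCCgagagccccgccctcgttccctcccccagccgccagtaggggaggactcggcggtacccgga
PSMB9, chr6:32853942-32854191, plus strand: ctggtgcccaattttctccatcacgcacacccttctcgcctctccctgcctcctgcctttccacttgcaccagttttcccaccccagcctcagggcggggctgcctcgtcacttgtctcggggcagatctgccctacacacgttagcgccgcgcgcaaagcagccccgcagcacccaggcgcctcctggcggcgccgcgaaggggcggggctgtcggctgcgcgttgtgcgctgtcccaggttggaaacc
TAP2, chr6:32838763-32838822, minus strand: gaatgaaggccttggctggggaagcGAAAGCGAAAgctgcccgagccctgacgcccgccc
TAPBP, chr6:33314069-33314123, minus strand: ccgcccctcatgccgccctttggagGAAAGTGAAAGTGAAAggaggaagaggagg
PSMB8, chr6:32844038-32844076, minus strand: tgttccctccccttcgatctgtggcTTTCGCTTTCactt
PSMB10, chr16:67936841-67936896, minus strand: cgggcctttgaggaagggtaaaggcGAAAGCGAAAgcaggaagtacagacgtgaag
HLA-F, chr6:29723253-29723312, plus strand: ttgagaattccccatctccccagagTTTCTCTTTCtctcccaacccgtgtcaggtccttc
HLA-B, chr6:31357321-31357381, minus strand: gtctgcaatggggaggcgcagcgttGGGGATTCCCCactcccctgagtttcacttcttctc

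TAP1 and PSMB9 lie head to head on chromosome 6, with 487 bases between their starts, and the upstream windows of both share 13 bases. The array annotation, whose build is not named and whose coordinates are not those of GRCh38.p14, also puts TAP2, PSMB8, TAP1 and PSMB9 in that order in band p21.32. There TAP2 204769_s_at spans chr6:32796297-32806521, PSMB8 209040_s_at chr6:32808624-32811801, TAP1 202307_s_at chr6:32812986-32821623 and PSMB9 204279_at chr6:32821961-32827327.

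Values are log2 relative to each probe set's own median over the 18 arrays, so 0 is that median, 1 is a doubling, and no absolute level is known. Over the arrays, 18 of the 22 varied with a standard deviation (SD) of at least 0.1. TAP2 204770_at lay within 0.05 of its median on all 18 arrays, and TAP2 208428_at and HLA-F 221978_at did so on 17 arrays. TAPBP 210294_at did so on 16 arrays. Such flat readings were common, with 4393 of all probe sets (21.6%) within 0.05 on every array. Several HLA probe sets carry the suffix _x_at, which marks probes that can bind related transcripts, so the HLA genes are not fully separate measurements. By the array annotation, HLA-B 208729_x_at aligns at 3 places and HLA-B 211911_x_at at 2.

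Some arrays lay nearer to another group than to their own. Distances were root mean square differences over the 3159 probe sets whose SD reached 0.5. The smallest, 0.284, was that of replicates 1 and 3 of TC71 at 72 h. Clones C1 of TC32 and C5 of TC71 were nearest to TC32 parental replicate 1, at 1.12 and 1.14. In TC71, C4A was nearest to 72 h replicate 1, at 1.27, and C3 to parental replicate 2, at 1.42. TC32 parental replicate 1 was nearest to TC71 parental replicate 1, at 0.698, and lay 1.02 from TC32 parental replicate 2. TC71 parental replicate 2 was nearest to TC71 72 h replicate 1, at 0.675. With either of these 2 parental arrays left out, 0 of the 22 class I probe sets were called in each comparison that uses it, and the largest shift of a change was 0.23.

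The class I genes were high on a few arrays in particular. Clones C4 (TC32) and C4A (TC71) came first: 13 of the 22 probe sets stood at least 0.5 above their median, against 9.08% and 7.83% of all probe sets on those arrays. TC71 72 h replicate 2 had 9 such probe sets and replicates 1 and 3 had 6 each, against 7.27%, 3.77% and 4.64% of all. TC32 72 h replicate 3 had 4 and replicate 2 had 3, against 10.7% and 7.59% of all, and TC71 clone C3 had 3, against 8.12%. The other 10 arrays had none. Among these, the share of all probe sets was 4.92% in TC32 72 h replicate 1, 5.32% in C1, 8.36% in CP and 7.33% in C5. It was 1.99%, 4.08% and 5.28% on the TC32 parental arrays and 3.38%, 2.68% and 3.55% on the TC71 parental arrays.

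**Figure D1:**
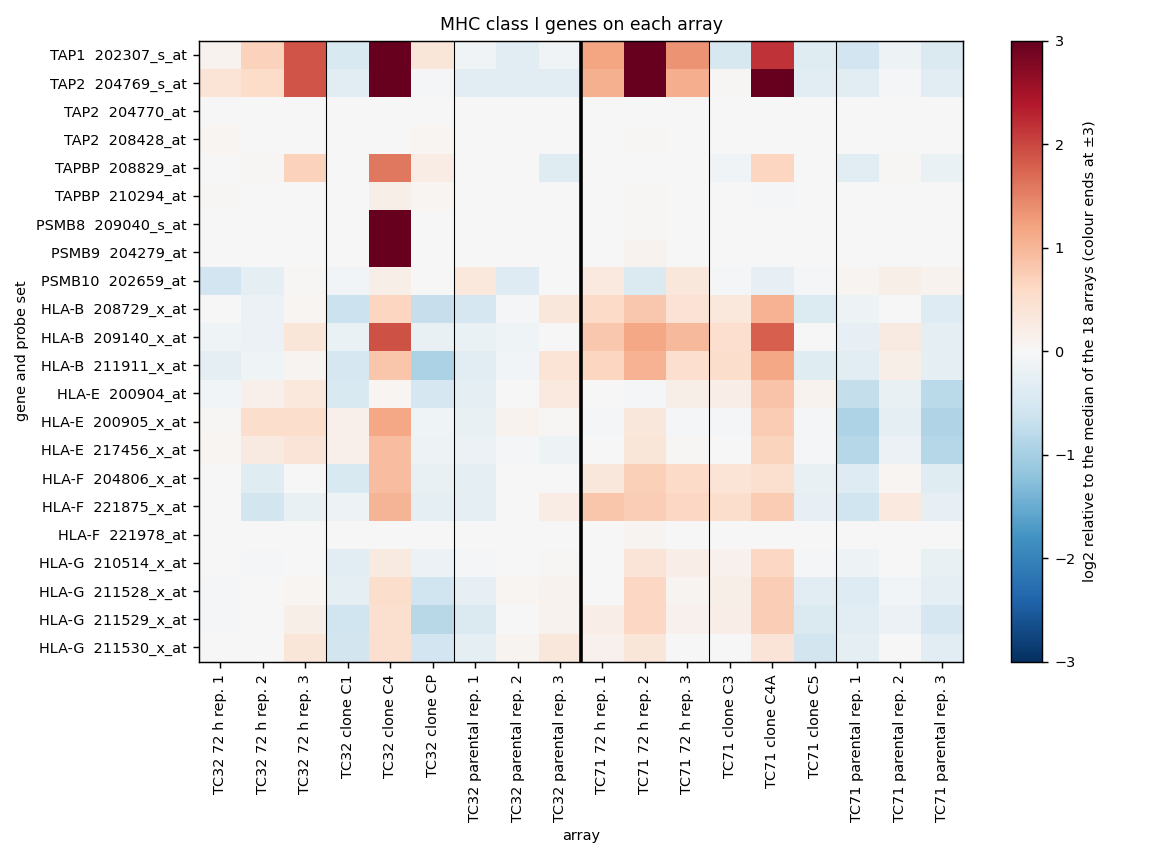
Colour map of the 22 probe sets (rows) on the 18 arrays (columns), TC32 left and TC71 right of the thick line, in log2 relative to each probe set's median, with colours ending at ±3. TC32 clone C4 is the one column with PSMB8 and PSMB9 in dark red, while TAP1 and TAP2 204769_s_at are also red at 72 h and in TC71 clone C4A.

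In no comparison did a class I probe set pass the test at an adjusted p of 0.05 (limma, Benjamini-Hochberg over all 20374 probe sets). After 72 h, 0 of the 22 were called in TC32, where 2.05% of all probe sets were called, and 0 in TC71, where 0.0933% were. Of the 22, 0 had an unadjusted p under 0.05 in TC32 (14.2% of all) and 5 did in TC71 (10.3% of all). For the clones against parental cells, 0 were called in TC32 (5.51% of all) and 0 in TC71 (0.825% of all), with 1 and 4 at an unadjusted p under 0.05 (18.6% and 10.7% of all). For the clones against 72 h, 0 were called in TC32 (12.8% of all) and 0 in TC71 (2.67% of all), and 0 had an unadjusted p under 0.05 in either line. The model uses 1 spread per probe set for all 6 groups, so a single high array widens the error of that probe set in every comparison. The 72 h and clone comparisons of a line share their parental arrays.

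The direction at 72 h in TC71 was nearly uniform without passing the test. There 21 of the 22 probe sets had a higher mean than in parental TC71 cells, with a median change of 0.56, while 65.1% of all probe sets were higher with a median of 0.00. Of the 21, TAP2 204770_at, TAP2 208428_at, TAPBP 210294_at, PSMB8, PSMB9 and HLA-F 221978_at were higher by only 0.04 or less. Without TC71 parental replicate 2, 21 were again higher, with a median change of 0.65. For 14 of the 22, every 72 h array lay above every parental array, against 12.3% of all probe sets. These were TAP1, TAP2 204769_s_at, all 3 of HLA-B, all 3 of HLA-E, 2 of 3 of HLA-F and all 4 of HLA-G. Of these HLA probe sets, all but HLA-E 200904_at are _x_at, so the 14 are not fully separate measurements. Without TC71 parental replicate 2 the count was 15 (16.8% of all), without TC71 72 h replicate 2 it was 15 (17.6% of all), and without both it was 16 (22.3% of all).

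In TC32 at 72 h, 12 of the 22 were higher than in parental cells, with a median change of 0.02, against 40.7% of all. Without TC32 parental replicate 1 only 7 of the 22 were higher, with a median of -0.0039, and 5 changed sign. Groups did not overlap for 4 of the 22, all higher, against 9.89% of all probe sets. They were TAP1, TAP2 204769_s_at, TAPBP 208829_at and HLA-E 217456_x_at, and the count was again 4 without TC32 parental replicate 1 (14.7% of all). The difference between the lines in the 72 h response (TC32 minus TC71) was below 0 for 20 of the 22, with a median of -0.40, and 0 were called (0.304% of all), with 1 at an unadjusted p under 0.05 (8.01% of all).

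**Figure D2:**
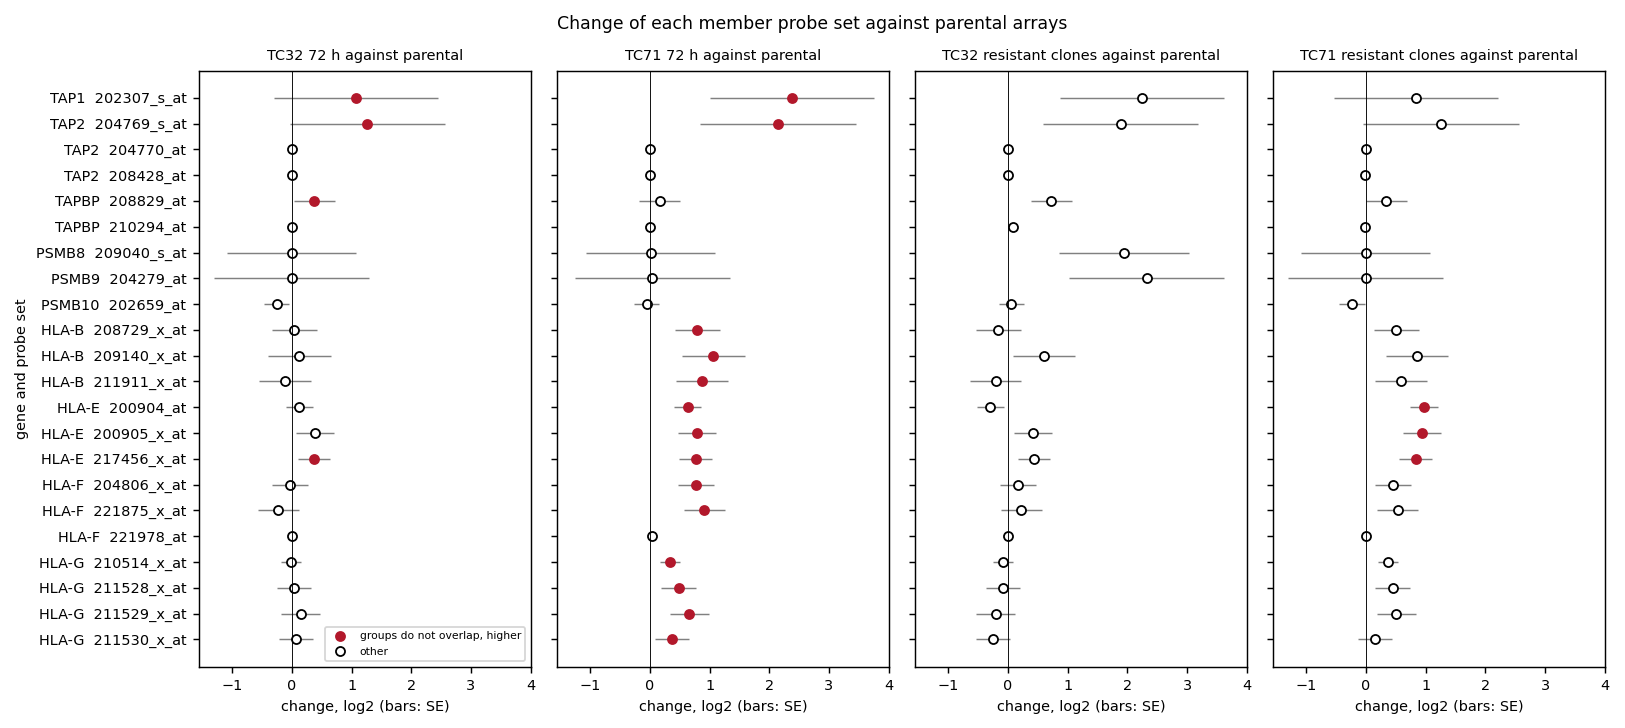
Change of each of the 22 probe sets against parental arrays of the same line, in log2, with bars for the limma standard error (SE) and 3 arrays a group. Filled points mark groups that do not overlap and are higher, 14 of them in TC71 at 72 h, 4 in TC32 at 72 h, 0 in TC32 clones and 3 in TC71 clones.

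TAP1, a subunit of the peptide pump, read 0.10, 0.70 and 1.88 on the TC32 72 h arrays, against -0.12, -0.35 and -0.10 on the parental arrays. In TC71 it read 1.17, 3.43 and 1.35 at 72 h, against -0.58, -0.14 and -0.45 in parental cells. In both lines each 72 h array was above each parental array, and the 72 h arrays differed widely among themselves. The change was 1.08 (SE 1.37, limma adjusted p = 0.9999) in TC32 and 2.38 (SE 1.37, limma adjusted p = 0.646) in TC71. In the clones TAP1 read -0.45 in C1, 6.26 in C4 and 0.36 in CP of TC32, and -0.47 in C3, 2.17 in C4A and -0.36 in C5 of TC71. A single clone in each line was thus far above the parental arrays and the other 4 clones were within 0.5 of the median. Without clone C4 the mean change in TC32 clones was 0.14, against 2.24 with it (limma adjusted p = 0.466). Without clone C4A the mean change in TC71 clones was -0.026, against 0.84 with it (limma adjusted p = 0.822).

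TAP2, the other subunit, was read by 204769_s_at at 0.41, 0.55 and 1.88 on the TC32 72 h arrays, against -0.32 on each of the 3 parental arrays. In TC71 it read 1.07, 3.59 and 1.08 at 72 h, against -0.32, -0.04 and -0.32 in parental cells. The groups did not overlap in either line, with changes of 1.27 (SE 1.30, limma adjusted p = 0.949) in TC32 and 2.14 (SE 1.30, limma adjusted p = 0.678) in TC71. In the clones it read -0.33 in C1, 5.10 in C4 and -0.07 in CP, and 0.04 in C3, 3.37 in C4A and -0.33 in C5. The same clones, C4 and C4A, stood out as for TAP1, and over the 18 arrays the Pearson correlation of TAP1 with TAP2 204769_s_at was 0.966, given as a description. The changes in the clones were 1.89 in TC32 and 1.25 in TC71, and 0.12 without C4 and 0.08 without C4A. The other TAP2 probe sets, 204770_at and 208428_at, lay within 0.05 of their median in both C4 and C4A.

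TAPBP 208829_at, which reads tapasin, had 0.01, 0.04 and 0.69 at 72 h in TC32, against 0.00, -0.02 and -0.36 in parental cells. In TC71 it read -0.01, 0.01 and -0.00 at 72 h, against -0.33, 0.04 and -0.19 in parental cells. It read -0.01 in C1, 1.59 in C4 and 0.22 in CP, and -0.11 in C3, 0.63 in C4A and -0.00 in C5. C4 was again the highest array, and the change in TC32 clones was 0.73 (SE 0.34, limma adjusted p = 0.284), or 0.23 without C4.

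The readings of the interferon-induced proteasome subunits differed from those of the pump. PSMB8 lay within 0.05 of its median on 17 arrays and read 5.82 in TC32 clone C4. PSMB9 lay within 0.05 on 16 arrays, read 0.11 in TC71 72 h replicate 2, and read 6.97 in C4. In TC71 clone C4A, where TAP1 and TAP2 were high, both lay within 0.05 of their median. As no absolute level is known, a flat reading does not show that no smaller change took place. The change in TC32 clones was 1.94 (SE 1.08, limma adjusted p = 0.398) for PSMB8 and 2.33 (SE 1.30, limma adjusted p = 0.399) for PSMB9, and 0.01 for each without C4. Among the 1220 probe sets that lay within 0.05 on exactly 17 arrays, PSMB8 was the only one at least 3 above its median in C4 alone.

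PSMB10, the remaining induced subunit and the one member gene outside chromosome 6 (it lies on 16), had no such peak. It read -0.58, -0.30 and 0.04 at 72 h in TC32, against 0.31, -0.39 and 0.00 in parental cells. In TC71 it read 0.30, -0.43 and 0.33 at 72 h, against 0.07, 0.19 and 0.11 in parental cells. It was 0.17 in C4, and the other 5 clones lay between -0.25 and -0.00. Its 72 h and parental arrays overlapped in both lines.

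**Figure D3:**
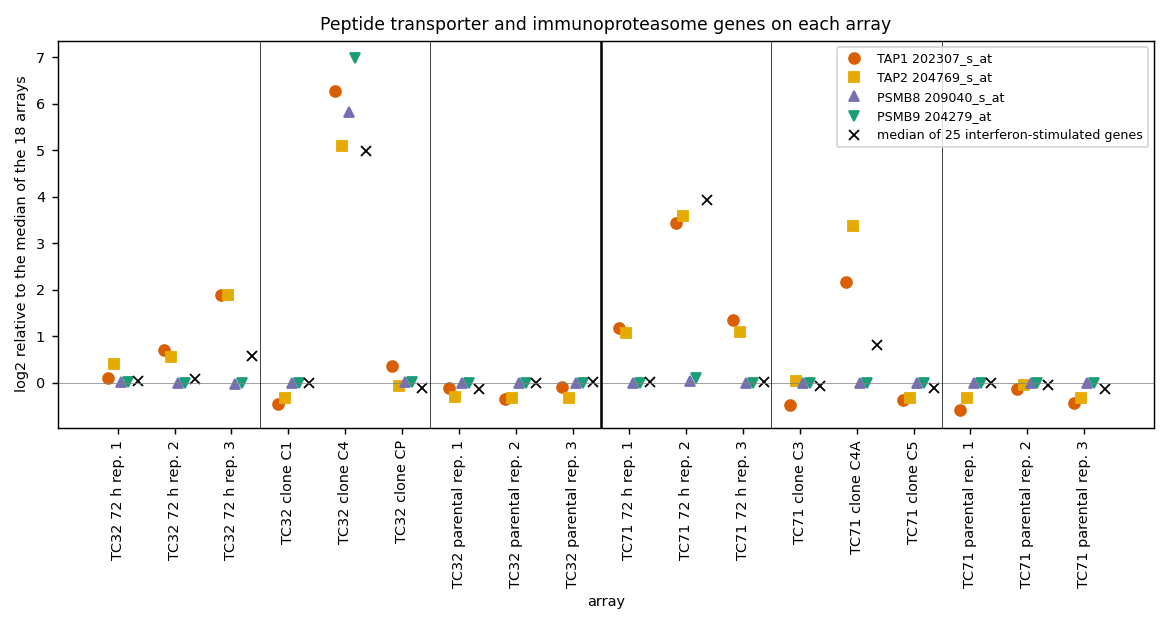
Log2 values, relative to each probe set's median, of TAP1, TAP2, PSMB8 and PSMB9 on each array, with the median of 25 interferon-stimulated genes as crosses. All 5 marks are high in TC32 clone C4 (4.97 to 6.97), while in TC71 72 h replicate 2 and TC71 clone C4A the TAP genes are high and PSMB8 and PSMB9 stay near 0.

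HLA-B 209140_x_at, the classical heavy chain, read -0.14, -0.17 and 0.37 at 72 h in TC32, against -0.19, -0.14 and 0.01 in parental cells. In TC71 it read 0.80, 1.15 and 0.98 at 72 h, against -0.25, 0.27 and -0.27 in parental cells. The TC32 groups overlapped and the TC71 groups did not. The change was 0.13 (SE 0.52, limma adjusted p = 0.9999) in TC32 and 1.06 (SE 0.52, limma adjusted p = 0.527) in TC71. In the clones it read -0.20 in C1, 1.92 in C4 and -0.23 in CP, and 0.50 in C3, 1.79 in C4A and -0.01 in C5. The change in TC32 clones was 0.60 with C4 and -0.11 without it. The other HLA-B probe sets went the other way there with all clones kept, 208729_x_at by -0.16 and 211911_x_at by -0.21.

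HLA-E, a ligand of the NKG2 receptors of natural killer cells, gave the lowest adjusted p of the 22 probe sets over the 9 comparisons. HLA-E 200904_at read 0.20 in C3, 0.86 in C4A and 0.11 in C5, against -0.72, -0.21 and -0.82 in parental TC71 cells. The groups did not overlap, and the change was 0.97 (SE 0.23, limma adjusted p = 0.0722, unadjusted p = 0.000979). All 3 HLA-E probe sets were apart and higher in the TC71 clones, the only 3 of the 22 to be so, against 5.74% of all probe sets. It stayed above the threshold in 12 of 15 alternatives, with a limma adjusted p of up to 0.302 (without TC71 parental replicate 3) and 0.0517 without TC71 parental replicate 2. The other 3 gave 0.0345 without clone C5, 0.0407 after quantile normalization and 0.0396 over probe sets with an SD of at least 0.1. In TC32 the same probe set read -0.45 in C1, 0.05 in C4 and -0.50 in CP, against -0.28, -0.01 and 0.29 in parental cells. The line difference in the clones' change was -1.27 (limma adjusted p = 0.152) and -1.41 without TC32 parental replicate 1 (limma adjusted p = 0.0617). Over the 22 probe sets 0 were called for that difference (0.172% of all), with 1 at an unadjusted p under 0.05 (10.7% of all).

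At 72 h in TC71, HLA-E 200904_at read 0.01, -0.04 and 0.18 and 200905_x_at read -0.04, 0.34 and -0.06, each above its parental arrays. The parental values of 200905_x_at were -0.93, -0.30 and -0.89. The changes were 0.63 (SE 0.23, limma adjusted p = 0.319) and 0.79 (SE 0.32, limma adjusted p = 0.394). In TC32 200905_x_at read 0.04, 0.52 and 0.52 at 72 h, against -0.22, 0.09 and 0.04 in parental cells, and these groups overlapped. It read 0.15 in C1, 1.17 in C4 and -0.13 in CP, and -0.05 in C3, 0.77 in C4A and -0.05 in C5.

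Parental TC32 cells lay above parental TC71 cells on all their arrays for HLA-E 200905_x_at alone among the 22, against 24.3% of all probe sets. Of the 22, 0 were called (0.0344% of all), with 1 at an unadjusted p under 0.05 (6.92% of all), HLA-E 200904_at, at 0.58 (limma adjusted p = 0.553).

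HLA-F 221875_x_at read 0.82, 0.73 and 0.63 at 72 h in TC71, against -0.59, 0.29 and -0.24 in parental cells. In TC32 it read 0.01, -0.54 and -0.22 at 72 h, against -0.27, -0.01 and 0.22 in parental cells. The groups were apart in TC71 and overlapped in TC32. The changes were 0.91 (SE 0.34, limma adjusted p = 0.355) in TC71 and -0.23 (SE 0.34, limma adjusted p = 0.9999) in TC32, and the line difference of -1.14 had a limma adjusted p of 0.554. It read -0.14 in C1, 1.03 in C4 and -0.27 in CP, and 0.53 in C3, 0.77 in C4A and -0.25 in C5. HLA-F 204806_x_at changed by 0.77 in TC71 at 72 h, and its groups there were also apart. HLA-F 221978_at, which lacks the _x_at suffix, changed by 0.026 there, and its groups overlapped. In the clones 221978_at lay between -0.0052 and 0.015 in TC32 and between -0.0098 and -0.0036 in TC71.

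HLA-G is best known from the placenta. Its most variable probe set, 211529_x_at, had an SD of 0.426 over the arrays, the lowest of the most variable probe sets of the 4 HLA genes. It read 0.20, 0.62 and 0.13 at 72 h in TC71, against -0.34, -0.17 and -0.51 in parental cells. In TC32 it read -0.06, -0.01 and 0.18 at 72 h, against -0.44, 0.01 and 0.11 in parental cells. The groups did not overlap in TC71, with a change of 0.66 (SE 0.33, limma adjusted p = 0.541), and overlapped in TC32. It read -0.59 in C1, 0.47 in C4 and -0.83 in CP, and 0.20 in C3, 0.74 in C4A and -0.44 in C5. Its correlation over the 18 arrays with HLA-B 208729_x_at was 0.958, and both are _x_at probe sets.

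In the TC71 clones, 6 of the 22 probe sets lay below every parental array, against 36.9% of all probe sets. PSMB10 was one of them, at -0.23 (limma adjusted p = 0.815). The other 5 were PSMB8, PSMB9, TAP2 204770_at, TAP2 208428_at and HLA-F 221978_at, which differed by 0.03 or less in size. In the TC32 clones no member was apart from the parental arrays in either direction, against 10.3% (higher) and 9.30% (lower) of all probe sets. In the clones against the 72 h arrays, none was apart in either line, against 13.0% (higher) and 12.7% (lower) of all in TC32 and 6.78% (higher) and 13.6% (lower) in TC71.

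**Figure D4:**
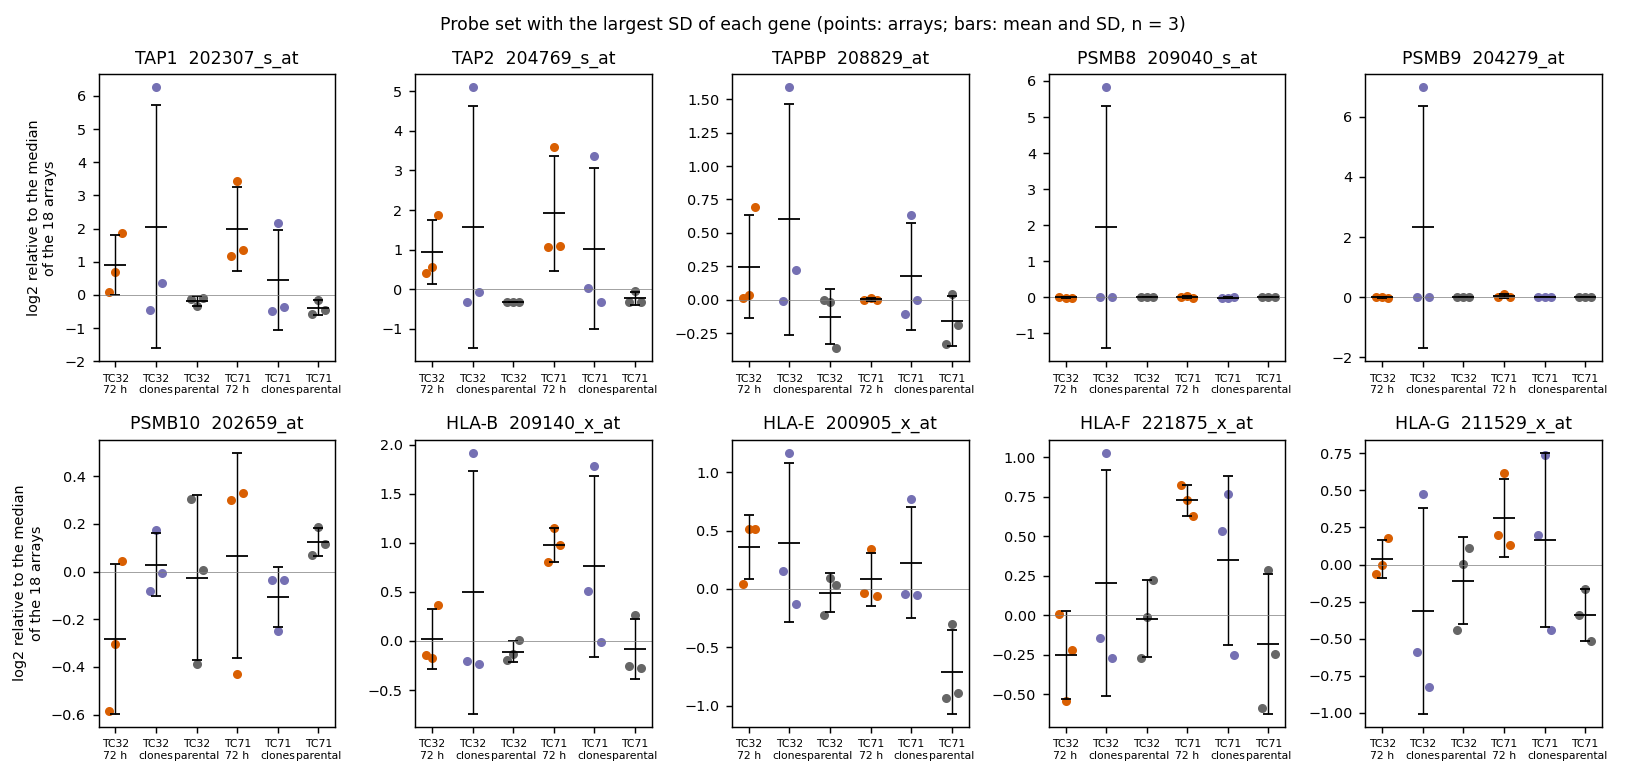
Log2 values relative to the median of the 18 arrays for 1 probe set of each of the 10 genes, the one with the largest SD, by group. Points are arrays and bars are means with SD (n = 3). The wide SD of the TC32 clones comes with 1 high point, clone C4, for TAP1, TAP2, PSMB8, PSMB9 and HLA-B.

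Interferon-stimulated genes outside class I were high on some of the arrays where class I genes were high, and less so on others. Of 25 such genes, 22 stood more than 1 above their median in TC32 clone C4, with a median over the genes of 4.97. In TC71 72 h replicate 2, 20 of the 25 did so, with a median of 3.94, and in TC71 clone C4A 10 did so, with a median of 0.81. TC32 72 h replicate 3 had 10 and a median of 0.57, and replicate 2 had 9 and a median of 0.07. TC71 72 h replicates 1 and 3, with 6 high class I probe sets each, had 5 and 4 such genes and medians of 0.01. Their part in the class I values was not tested. Over the list's 32 probe sets, 0 were called in any of the 9 comparisons. The 72 h change in TC71 was above 0 for all 32, with a median of 1.64, and for 20 of the 32 in TC32, with a median of 0.04.

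Among the 5 genes most like the mean of the 10 class I genes over the 18 arrays, out of 3150 probe sets with an SD of at least 0.5, were C19orf66, CXCL11, OPTN and SP110. Their Pearson correlations were 0.898, 0.883, 0.880 and 0.874. All the points share the same RNA samples. Without TC32 clone C4 the correlations were 0.827 for C19orf66, 0.884 for CXCL11, 0.619 for OPTN and 0.601 for SP110.

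Among the other parts of class I assembly (24 probe sets of 9 genes), 0 were called in any comparison. HLA-C, another classical heavy chain, had the largest change of this list at 72 h in TC71. HLA-C 208812_x_at read 1.64, 2.32 and 1.86 at 72 h, against -0.07, 0.73 and 0.07 in parental TC71 cells, with a change of 1.70 (limma adjusted p = 0.567). In TC32 it read -0.19, -0.35 and -0.74 at 72 h, against -0.50, -0.50 and -0.75 in parental cells. Its clones read -0.77 in C1, 2.69 in C4 and -0.75 in CP, and 1.45 in C3, 3.54 in C4A and 0.13 in C5. The light chain gene B2M, read by 201891_s_at, stayed between -0.21 and 0.39 on the 18 arrays.

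Of 9 probe sets for the constitutive proteasome subunits and the proteasome activator, 1 was called in any comparison. That call was in the TC32 clones against 72 h, where 12.8% of all probe sets were called. PSMB7, the constitutive counterpart of PSMB10, read 0.14 in C1, 0.22 in C4 and 0.08 in CP, against -0.56, -1.01 and -1.16 in TC32 cells at 72 h. The groups did not overlap (13.0% of all probe sets, higher), and PSMB7 was higher in the clones by 1.06 (limma adjusted p = 0.000993). PSME1 and PSME2, subunits of the activator, read 1.30 and 1.71 in C4.

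Among regulators of class I genes, 43 probe sets of 23 of 24 listed genes were measured. RFX5 is a factor that binds the X box of MHC promoters, and its probe set 202963_at rose at 72 h in both lines. It was the 1 call among the 43 in each of these comparisons, against 2.05% of all probe sets in TC32 and 0.0933% in TC71. The second RFX5 probe set, 202964_s_at, was not called in either. RFX5 202963_at read 0.14, 0.46 and 0.49 at 72 h in TC32, against 0.02, -0.02 and -0.10 in parental cells, a change of 0.40 (limma adjusted p = 0.0232). In TC71 it read 0.36, 0.37 and 0.43 at 72 h, against -0.09, -0.11 and -0.13 in parental cells, a change of 0.50 (limma adjusted p = 0.0415). No array of a 72 h group overlapped its parental group, against 9.89% (higher) of all probe sets in TC32 and 12.3% in TC71. The TC71 call was lost when any 1 of the 6 TC71 arrays compared was left out (limma adjusted p of 0.0550 to 0.186), and the TC32 call was lost without any 1 of TC32 parental replicates 2 and 3 and 72 h replicates 2 and 3, up to 0.111, and kept without TC32 parental replicate 1 (0.0438). Over probe sets with an SD of at least 0.1 neither call was kept (limma adjusted p = 0.0524 in TC32 and 0.0684 in TC71), and over all settings the limma adjusted p reached 0.256 in TC32 and 0.186 in TC71.

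Against 72 h, 2 of the 43 regulator probe sets were called higher and 3 lower in the TC32 clones (12.8% of all, either direction). In the TC71 clones 0 were called higher and 3 lower (2.67% of all). In the clones of both lines RFX5 202963_at was lower than at 72 h. RFX5 202963_at read -0.15 in C3, -0.05 in C4A and -0.05 in C5, and the change from the TC71 72 h values above was -0.47 (limma adjusted p = 0.00834). The second probe set, 202964_s_at, fell by 1.62 (limma adjusted p = 0.00365). In TC32 202963_at read 0.09 in C1, -0.07 in C4 and 0.13 in CP. It fell by 0.32 there (limma adjusted p = 0.0192), and 202964_s_at was not called. The TC32 call was lost without 72 h replicate 2, without 72 h replicate 3 or without C4 (limma adjusted p of 0.0791 to 0.0934). All 3 of these calls were lost when only the arrays of the groups compared were fitted, with limma adjusted p of 0.212 in TC32, and 0.0594 for 202963_at and 0.187 for 202964_s_at in TC71. These comparisons share their 72 h arrays with the ones above.

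JAK1, a kinase that interferon receptors need, read -0.29 in C1, -0.22 in C4 and -0.34 in CP, against 0.15, 0.03 and 0.23 in parental TC32 cells. The groups did not overlap (9.30% of all probe sets, lower), and JAK1 fell by 0.42 (limma adjusted p = 0.0400). Of the 43 regulator probe sets it was the 1 called there, against 5.51% of all. This call was lost when any 1 of the 6 TC32 arrays compared was left out, with limma adjusted p of 0.0664 to 0.172.

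Also called between the clones and the 72 h arrays were NFKB1 at -1.48 (limma adjusted p = 0.0219), IFNAR2 at 1.10 (limma adjusted p = 0.0118), NFYC at -0.67 (limma adjusted p = 0.00954) and CREB1 at 0.37 (limma adjusted p = 0.0295) in TC32. In TC71, NFYA was called at -1.26 (limma adjusted p = 0.0213). NFKB1 is an NF-kappa B subunit, IFNAR2 a chain of the type I interferon receptor, and NFYC, NFYA and CREB1 belong to factors that bind MHC promoters. Each of these 5 calls was lost on leaving out at least 1 array or on another setting. IRF1, which binds ISRE-like sites and was singled out after its values were seen, read 1.51 in C4 and between -0.15 and 0.22 on the other 17 arrays. The largest 72 h changes of this list, not called, were those of IRF9: 2.25 in TC32 (limma adjusted p = 0.690) and 3.72 in TC71 (limma adjusted p = 0.435). Against 72 h, IRF9 changed by -1.48 in the TC32 clones (limma adjusted p = 0.786) and by -3.25 in the TC71 clones (limma adjusted p = 0.376). Against parental cells, RFXAP changed by -1.21 in the TC32 clones (limma adjusted p = 0.0671) and by -1.26 in the TC71 clones (limma adjusted p = 0.149).

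**Figure D5:**
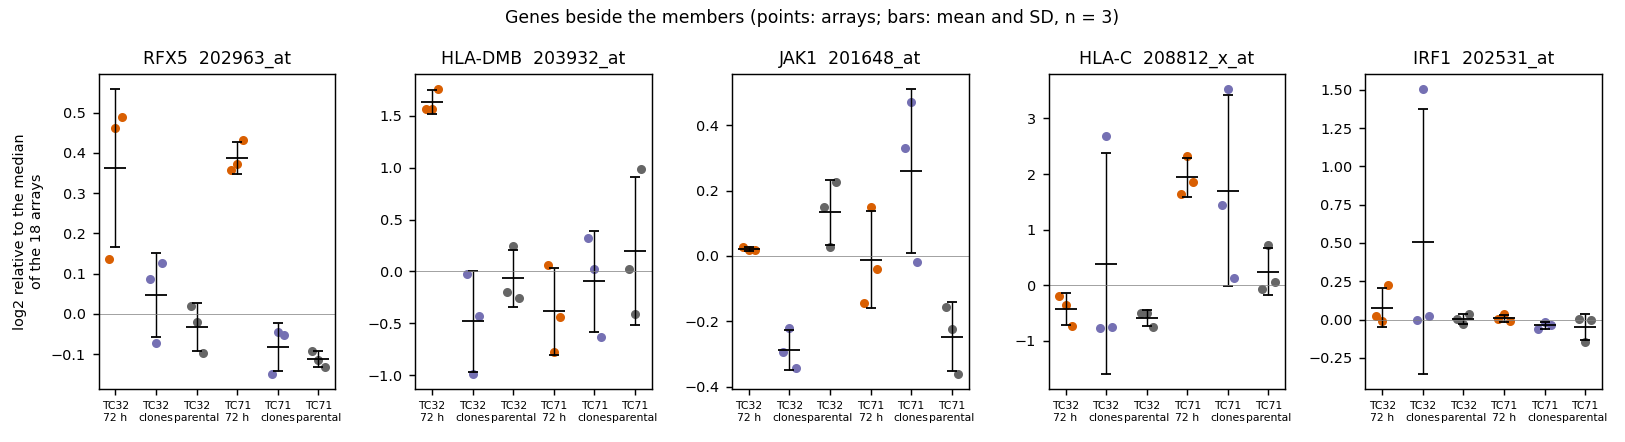
Log2 values relative to the median of the 18 arrays for RFX5, HLA-DMB, JAK1, HLA-C and IRF1 by group, with points for arrays and bars for mean and SD (n = 3). RFX5 202963_at at 72 h is above the parental arrays in both lines, HLA-DMB is highest on the 3 TC32 72 h arrays, and IRF1 has 1 high array, TC32 clone C4.

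Marker lists gave the following beside these values. Of 10 probe sets of 6 Ewing sarcoma markers, 3 were called, all in the TC32 clones against 72 h (12.8% of all probe sets). CAV1, the gene of caveolin, fell by 1.23 (203065_s_at, limma adjusted p = 0.00388) and by 0.96 (212097_at, limma adjusted p = 0.0151), and the membrane protein gene STEAP1 rose by 0.82 (limma adjusted p = 0.0118). The summed level of the 6 genes was -0.72 to -0.50 at 72 h and -1.36 to 0.50 in the clones of TC32, against -1.68 to 0.37 in parental cells. In TC71 it was -0.61 to 0.79 at 72 h and 0.03 to 1.53 in the clones, against -0.17 to 0.65 in parental cells. Of 3 endothelial genes, all lay within 0.1 of their median on every array. Of 9 leukocyte genes, all lay within 0.1 in TC32 clone C4 and 8 of 9 did in TC71 clone C4A, and the summed level was -0.05 to 4.71 in TC32 clones and -0.17 to 4.95 in TC71 clones. It was -0.07 to 1.21 at 72 h in TC32, against 0.03 to 0.29 in parental TC32 cells, and -0.14 to 0.16 at 72 h in TC71, against -0.05 to 0.02 in parental TC71 cells. PTPRC 212588_at, the leukocyte antigen CD45, read 5.82 in C1, 7.18 in CP and 8.43 in C3, and -0.03 in C4 and 0.42 in C4A. Yet 8 of the 9 leukocyte genes lay within 0.1 of their median in C1 and in C3, and 7 did in CP. The summed level of 4 fibroblast genes was -4.47 to -4.14 at 72 h in TC32 and -0.40 to 1.21 in its clones, against -7.89 to 1.11 in parental cells. In TC71 it was -0.11 to 0.20 at 72 h and 0.56 to 2.49 in the clones, against 1.501 to 1.552 in parental cells. Among the fibroblast genes LUM, a matrix proteoglycan, was the one called, in the TC32 clones against 72 h, where it rose by 3.67 (limma adjusted p = 0.0260). LUM was 1 of 11 fibroblast probe sets, against 12.8% of all probe sets. Leaving out 72 h replicate 3 lost the calls of LUM (0.0952), STEAP1 (0.0518) and CAV1 212097_at (0.0688) in limma's adjusted p. Over all alternatives, LUM lost its call in 7 of 14, CAV1 212097_at in 6 of 14 and STEAP1 in 2 of 15. CAV1 203065_s_at kept its call in all 14. The part of these genes in the class I values was not tested. In RNA from whole cultures, fewer cells with a transcript and less of it per cell cannot be told apart.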

How the data were processed

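Total RNA had been labelled and hybridised to Affymetrix Human Genome U133A 2.0 arrays. Per the labels, the deposited log2 values come from the authors' use of GeneSpring GX 12.1 at default, and the summarisation method is not given in the sources used here. Each probe set has a median of 0 over the 18 arrays, both deposited tables were identical (largest difference 0), and 0 columns could not be mapped to a sample. Values ran from -10.65 to 11.66.

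One limma model (version 3.58.1, R 4.3.3) of the 6 group means was fitted to all 20374 probe sets with 1 gene symbol (of 22277), without control probe sets. It had 12 residual and 0.793 prior degrees of freedom. It gave 9 comparisons, with Benjamini-Hochberg adjustment over all probe sets and a threshold of 0.05. "Rose" and "fell" mark probe sets past it. No filter on level was possible. The test was checked on simulated data. All member probe sets are reported, with every array's value for the probe set of each gene with the largest SD. From the other lists, called probe sets and the 2 with the largest change in a comparison could be named. The members and lists were chosen with earlier results of these data known. The main model did not pair arrays by replicate number. Same-number correlations of 72 h and parental deviations were 0.17, 0.02 and 0.30 in TC32 and -0.01, 0.07 and 0.04 in TC71. Different-number correlations ran from -0.32 to 0.11 in TC32 and from -0.07 to 0.09 in TC71. These values do not settle whether the numbers pair arrays. Alternatives were other normalizations, gene summaries, filters, variance settings, the replicate block and leaving out each array. Averaging TC71 72 h replicates 1 and 3, and the counts of overlap and direction without single arrays, were added after the values were seen. One gene that the rule for named genes selected is not reported here.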

Additional observations from a re-analysis of the deposited data

Results flagged for a closer look

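The change of JAK1 (201648_at) in the resistant clones differed between the lines. JAK1 was the 1 of the 43 regulator probe sets called for that difference, against 0.172% of all. Relative to parental cells it was lower in the TC32 clones and higher in the TC71 clones, and the difference, tested as an interaction in the limma model, was -0.93 (limma adjusted p = 0.0361). JAK1 read 0.33 in C3, 0.47 in C4A and -0.02 in C5, against -0.16, -0.22 and -0.36 in parental TC71 cells. The interaction was not called without TC32 parental replicate 2 or 3 or without any 1 of the 3 TC71 parental arrays, with adjusted p of 0.0601 to 0.111, nor in a fit of the compared groups alone (limma adjusted p = 0.219), and was called without TC32 parental replicate 1 (0.0211).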

How the results depend on the processing

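The number of class I probe sets called was 0 in each of the 9 comparisons, and stayed 0 under each alternative except the following. The replicate block called 1 in TC71 at 72 h (HLA-B 208729_x_at, limma adjusted p = 0.0484), and whether the numbers pair the arrays is not settled. Quantile normalization applied again and the filter on an SD of at least 0.1 each called 1 in the TC71 clones against parental cells (HLA-E 200904_at). Leaving out 1 array gave 0 to 1 calls in the TC71 clones against parental cells (HLA-E 200904_at without C5). It gave 0 to 1 in the TC32 clones against parental cells and 0 to 1 in the TC32 clones against 72 h, both times TAPBP 210294_at without C1.

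For 45 named results, 701 alternatives were run: 606 kept direction and side of the threshold, 89 lost the call, 4 gained one and 2 changed sign. Only a called result can lose a call, so all 89 losses fell on called results. The 45 also hold results that were not called, which the threshold of 0.01 could not move. The 606 of 701 thus does not measure how well the calls held. The sign changes were TAP1 in the TC71 clones without C4A, at -0.026 (limma adjusted p = 0.997; 1.30 at most over the arrays left out), and HLA-B 209140_x_at in the TC32 clones without C4, at -0.11 (limma adjusted p = 0.947; 0.97 at most). In both the clone left out was the one with the highest value. The 2 deposited tables gave the same values. The limits are 3 arrays a group, values without absolute level, and HLA probe sets that can bind related transcripts.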

Other observations

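MHC class II genes, which present peptides from outside the cell, were set beside the class I genes. Of 21 probe sets, 1 was called at 72 h in TC32 (2.05% of all). HLA-DMB, a chain of the class II peptide exchanger, read 1.57, 1.56 and 1.76 there, against -0.20, 0.25 and -0.25 in parental cells, and rose by 1.70 (limma adjusted p = 0.0313). The call was lost on leaving out 5 of the 6 arrays one at a time, with adjusted p up to 0.129, TC32 parental replicate 1 among them (0.0833). In the TC32 clones, HLA-DMB fell by 2.11 (limma adjusted p = 0.00285) and its partner HLA-DMA by 1.35 (limma adjusted p = 0.00594) relative to 72 h. These were 2 of the 21, against 12.8% of all probe sets. The HLA-DMA call was lost when only the arrays of the groups compared were fitted (limma adjusted p = 0.0645). The TC32 72 h values of HLA-DMB were high on all 3 arrays, unlike TAP1, which ran between 0.10 and 1.88.

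Neighbours of the class I genes were also read on each array. Between the outermost class I genes on chromosome 6 (29691240 to 33281856 in the array annotation, whose build is not named), 150 probe sets of 92 genes outside the gene lists used here were measured. Those at least 0.5 above their median numbered 7 in TC32 clone C4 (4.67%, against 9.08% of all probe sets on that array) and 12 in TC71 clone C4A (8.0%, against 7.83%). The most were 30 in TC32 72 h replicate 3 (20.0%, against 10.7%) and 16 in replicate 2 (10.7%, against 7.59%). The other 14 arrays had 0 to 9.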
